A study of Mus musculus with 6 samples.

Results

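Cell cycle transcripts were counted in 6 subcutaneous tumours. The set holds 42 genes taken by symbol from a table of 34745 genes, and all 42 were found there. For description they were grouped by textbook role into 6 regulators of the passage from G1 into S phase, 15 genes of DNA replication in S phase, and 21 genes of G2 phase and mitosis (G2/M). Per the labels, the tumours were raised in C57BL/6J mice from cultured B16F10 cells, a mouse melanoma line, placed in the right flank, though pigment cell markers given here go against that origin. Mice of the ND group were fed a normal diet and mice of the HCD group a high cholesterol diet. Both groups shared the strain, the cell line and the injection site, and the ages of the mice are not given in the sources used here. There were 3 tumours per diet, numbered 1 to 3 within a diet, and 1 RNA-seq library per tumour. The labels do not say whether the numbered tumours came from separate mice, so the p-values given here measure only the spread between these samples. The comparison addresses whether levels of cell cycle transcripts differed between tumours of the HCD and ND groups.

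A dividing cell copies its DNA in S phase and separates the copies in mitosis, and its transcripts follow in waves. In G1, cyclin D with Cdk4 and then cyclin E with Cdk2 phosphorylate the retinoblastoma protein, which frees E2F factors to switch on the replication genes. A later wave, driven by B-Myb and Foxm1 on promoters that carry a cell cycle homology region (CHR) and CCAAT boxes, supplies the cyclins, kinases, motors and checkpoint proteins of mitosis. The levels of these transcripts in a tissue therefore depend on how many cells are cycling and on where in the cycle they are. In bulk tissue, fewer cells of a type and less RNA per cell cannot be told apart.

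Promoter sequences are shown first because both waves are tied to motifs in them, and because the genes of each wave were compared as classes. RefSeq windows (GRCm38.p6) from 250 bases before to 50 bases after a gene's start were matched by symbol for 33 of the 42 genes, with 35 windows in all. The 9 others were Ccna2, Ccnd1, Ccne2, Foxm1, Aurkb, Kif20a, Cdc25c, Mcm4 and Gins2. On both strands, the E2F motif was searched as TTTCCCGC, TTTCGCGC, TTTGCCGC or TTTGGCGC, the CHR as TTTGAA or TTCGAA, and the CCAAT box as CCAAT. TTTCGCGC and TTTGGCGC can overlap each other on opposite strands, and TTCGAA reads the same on both strands. The lines show 200 bases each, from 170 before to 30 after the start, written 5′ to 3′ along the gene, with capitals for any match to these words. The first 2 genes code for subunits of the replicative helicase and carry E2F words.
Mcm5: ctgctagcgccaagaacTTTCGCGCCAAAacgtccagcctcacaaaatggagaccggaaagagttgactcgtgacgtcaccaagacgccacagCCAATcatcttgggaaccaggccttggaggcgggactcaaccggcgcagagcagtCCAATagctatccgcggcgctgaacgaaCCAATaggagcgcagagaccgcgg
Mcm6: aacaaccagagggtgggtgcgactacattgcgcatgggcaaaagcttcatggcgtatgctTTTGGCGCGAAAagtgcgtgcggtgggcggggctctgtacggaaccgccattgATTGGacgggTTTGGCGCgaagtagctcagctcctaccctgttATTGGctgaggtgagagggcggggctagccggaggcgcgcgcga
The remaining 3 code for a mitotic cyclin, the kinase it activates, and an activator of the ubiquitin ligase that ends mitosis, and they carry the CHR with CCAAT boxes.
Ccnb2: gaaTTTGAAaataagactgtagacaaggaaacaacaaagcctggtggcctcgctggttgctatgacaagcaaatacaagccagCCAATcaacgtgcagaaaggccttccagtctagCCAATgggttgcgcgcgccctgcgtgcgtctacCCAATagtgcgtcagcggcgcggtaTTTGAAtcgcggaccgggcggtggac
Cdk1: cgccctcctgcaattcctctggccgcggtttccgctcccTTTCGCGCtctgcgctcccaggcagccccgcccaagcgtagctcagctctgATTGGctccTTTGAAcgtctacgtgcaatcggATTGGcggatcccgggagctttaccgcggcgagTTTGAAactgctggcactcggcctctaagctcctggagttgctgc
Cdc20: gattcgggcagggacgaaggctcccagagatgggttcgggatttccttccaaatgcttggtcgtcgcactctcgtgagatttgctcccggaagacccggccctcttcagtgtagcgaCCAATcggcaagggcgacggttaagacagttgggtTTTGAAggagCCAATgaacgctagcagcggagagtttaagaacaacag

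The Mcm5 window lies at chr8:75109339-75109538 on the plus strand, with E2F words starting 153 and 149 bases before the start, on opposite strands and overlapping. The Mcm6 window (chr1:128359676-128359875, minus strand) holds 3 such words, at 110, 106 and 47 bases before the start. The Ccnb2 window (chr9:70421525-70421724, minus strand) holds TTTGAA at 5 bases after and 167 bases before the start, with CCAAT boxes at 21, 54 and 87 bases before it. In the Cdk1 window (chr10:69352883-69353082, minus strand), TTTGAA starts 15 and 71 bases before the start, with CCAAT boxes at 48 and 80 and an E2F word at 131 bases before it. The Cdc20 window (chr4:118437314-118437513, minus strand) has TTTGAA at 18 bases before the start, between CCAAT boxes at 53 and 8.

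The classes differed in how often they carried these letters. Among genes with a window, an E2F word was present in 7 of 13 S phase genes (53.8%) and in 1 of 16 G2/M genes (6.25%, Cdk1), against 2.6% of all 27025 genes in the RefSeq table. A CHR word was present in 14 of 16 G2/M genes (87.5%) and in 3 of 13 S phase genes (23.1%), against 21.7% of all genes. With TTTGAA alone, 13 of 16 G2/M genes held it. CCAAT boxes were in 15 of 16 G2/M genes (93.8%) and 10 of 13 S phase genes (76.9%), against 41.1% of all genes. The CHR and the CCAAT box stood together in 14 of 16 G2/M genes (87.5%), against 9.65% of all genes. Among the G1/S regulators, Cdk2 alone of the 4 with a window held an E2F word. In the GENCODE vM21 gene models, however, E2f1, Cdc6 and Mcm7 begin upstream of all their RefSeq windows. The bases before those GENCODE starts were not searched, so a missing word there is not shown. These matches describe letters in a fixed window; none is a measured binding site.

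**Figure D1:**
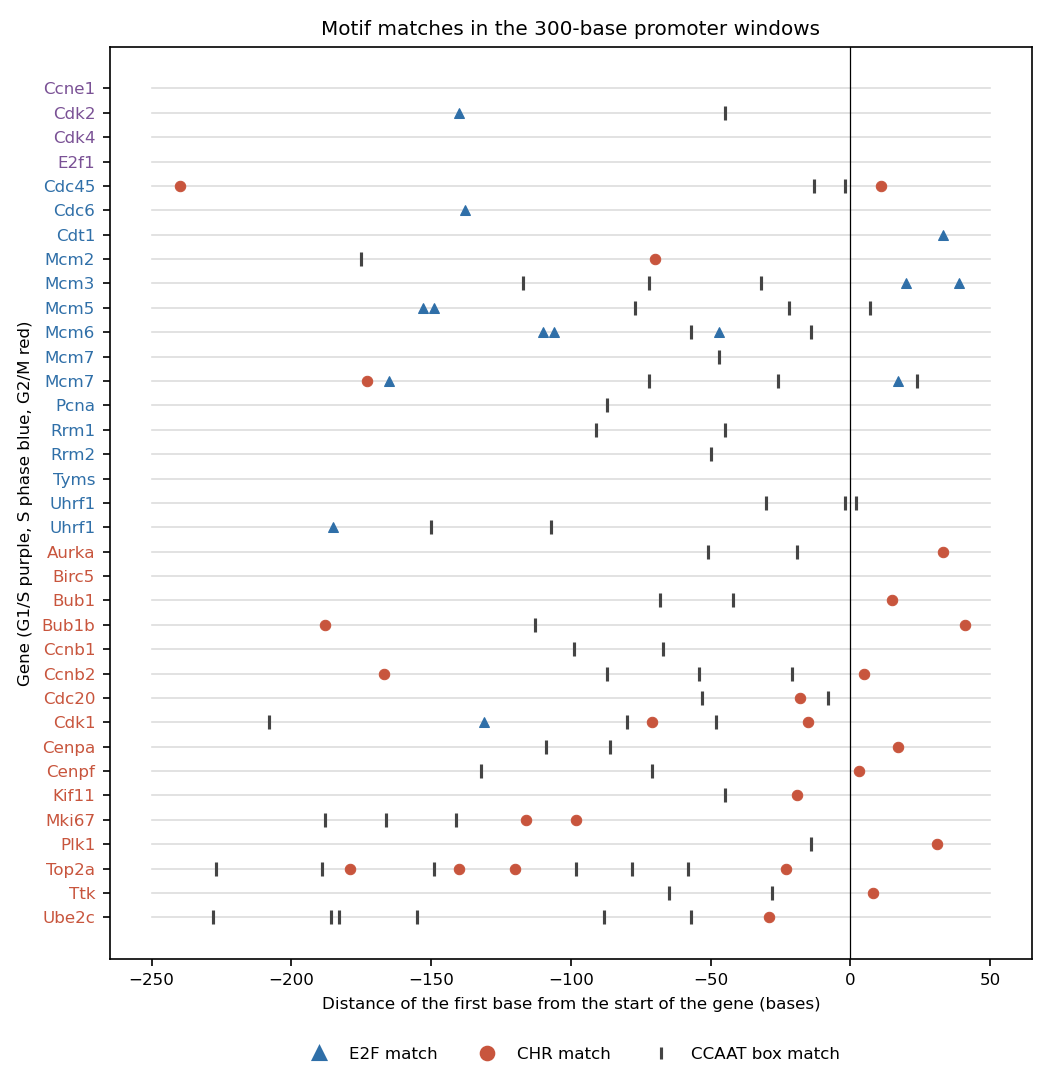
Positions of matches to the E2F, CHR and CCAAT words in the 35 promoter windows of the 33 matched genes, as the distance of a match's first base from the gene's start in bases; each grey line is 1 window, and Mcm7 and Uhrf1 have 2 windows each. CHR matches stand in 14 of 16 G2/M genes and E2F matches in 7 of 13 S phase genes.

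The libraries held 20351637 to 26228074 counts, and the genes of the set held 232 to 22823 counts per library. All 42 passed the filter on low counts and were tested among 15539 genes. The identity of the tissue is in doubt, since the libraries labelled melanoma did not show its markers: of 6 pigment cell genes, Tyr, Dct and Mlana had no count in any library, and the list summed to 0.437 to 0.974 CPM (counts scaled to a common library size, with TMM factors). The 5 hepatocyte markers all had counts, at uneven levels. On average, Alb had 3611 CPM, Afp 633 CPM, Hnf4a 169 CPM, Apoa1 61.35 CPM and Ttr 10.05 CPM. Their sum, most of it Alb, was 3993 to 5106 CPM in ND and 3629 to 5453 CPM in HCD. Marker sums of other cell types moved between single libraries: 4 skeletal muscle genes summed to 1461 CPM in ND 2 and 1388 CPM in HCD 1 and to 5.85 to 126 CPM in the other 4. The 8 T cell genes ran from 17.6 CPM (ND 1) to 130 CPM (HCD 2), the 6 macrophage genes from 215 CPM (ND 1) to 459 CPM (HCD 2), the 4 endothelial genes from 128 CPM (ND 1) to 293 CPM (HCD 2), and the 5 fibroblast genes from 2186 CPM (HCD 3) to 3143 CPM (ND 1). Means of some sums differed by diet while the libraries overlapped. The 4 neutrophil genes summed to 111 ± 35.1 CPM in ND and 62.97 ± 7.96 CPM in HCD (SD, n = 3). ND 2 had 71 CPM of them and HCD 2 72.1 CPM. Csf3r and Cxcr2 were lower in all 3 HCD tumours than in any ND tumour, as were 6.36% of all tested genes. S100a8 and S100a9 overlapped. The 4 B cell genes summed to 2.56 ± 1.29 CPM in ND and 8.22 ± 6.19 CPM in HCD, with 3.4 CPM in ND 2 and 1.75 CPM in HCD 3. The 8 T cell genes summed to 52.3 ± 30.5 CPM in ND and 90.4 ± 38.4 CPM in HCD, with 64.3 CPM in ND 2 and 53.2 CPM in HCD 3. No gene of these lists passed edgeR's test after adjustment. The part of these cells in the differences between diets given here was not tested.

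Proliferation transcripts were abundant in every tumour, and G1/S, S and G2/M genes were mixed along the order of levels. Per length (the deposited FPKM, means over 6 libraries), Ccnd1, the cyclin of early G1, led with 200.2 ± 7.88 FPKM (SD, n = 6). Mki67, the antigen behind the Ki-67 proliferation stain, followed with 74.6 ± 6.76 FPKM, and Top2a, the topoisomerase that untangles replicated DNA, with 66.0 ± 4.36 FPKM. Next came Pcna (59.4 ± 4.48 FPKM), the sliding clamp of DNA polymerase, Rrm1 (56.3 ± 4.06 FPKM), a subunit of ribonucleotide reductase, Cdk4 (49.6 ± 3.03 FPKM) and the helicase subunit Mcm6 (47.6 ± 4.28 FPKM). Neighbours in this order overlapped within 1 SD of their means over the 6 libraries, apart from Ccnd1 above Mki67, Birc5 above Aurkb and Cenpf above Cenpa. At the low end stood Ccne1 (5.34 ± 0.841 FPKM) and Ccne2 (4.74 ± 0.503 FPKM), the E-type cyclins, Gins2 (4.17 ± 0.581 FPKM), part of the helicase complex, the origin licensing factor Cdc6 (3.30 ± 0.341 FPKM) and Tyms (3.23 ± 0.421 FPKM), the thymidylate synthase.

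Some counts may hold reads of a neighbour or a near copy, since 14 of the 42 genes share over 10% of their 50-base words with other genes' transcripts. Ccnd1 shares 23.4% of its exon bases with LTO1, Cdk4 19.7% with Tspan31 and Ccna2 12.5% with Exosc9, each on the opposite strand, and Pcna shares 19.1% of its words with Pcna-ps2. Uhrf1 (15.4%), Cdc25c (11.9%), Cdc20 (10.6%) and Plk1 (10.4%) also share such words, and Ccne2, Mcm7, Gins2, Ccnb1, Kif20a and Ube2c are described with their values. The order of levels also rested in part on the gene length behind the FPKM. The length implied by the deposited values was 0.998 to 6.62 times that of the longest coding transcript in GENCODE vM21 (median 1.5), and over 2 times it for 15 genes. With CPM per kilobase of that transcript in its place, Ccnd1 stayed at rank 1, while Mki67 went from rank 2 to 6 and Cdk4 from 6 to 2. Cenpa, the centromeric histone, went from rank 33 to 10, and 19 genes changed rank by at least 5. Comparisons of a gene with itself between libraries do not depend on this length.

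**Figure D2:**
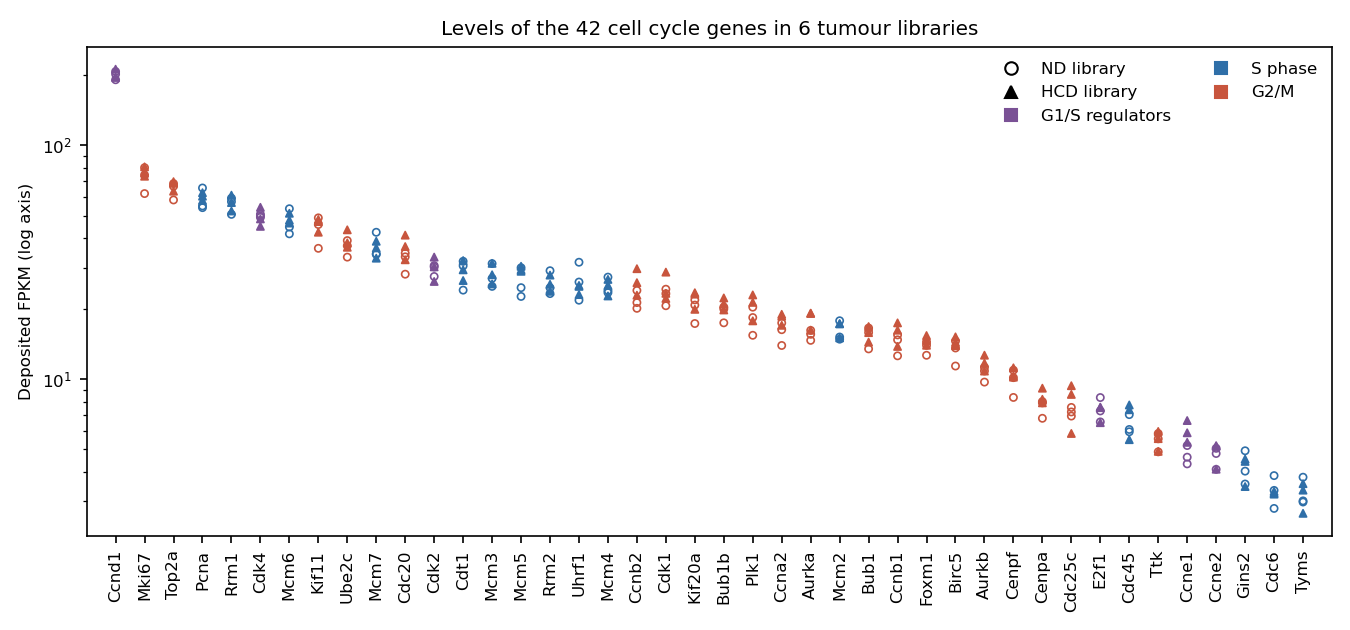
Deposited FPKM (log axis) of the 42 genes in each of 6 libraries, ordered by the mean; open circles are ND libraries, triangles HCD libraries, and colours mark the class. Ccnd1 stands at 200.2 FPKM on average and Tyms at 3.23 FPKM, and for nearly every gene the circles and triangles interleave.

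Between tumours the genes moved little and largely together. The median gene of the set had a within-diet SD of 0.15 on the log2 CPM scale, against 0.17 over all tested genes, and its highest library was 1.32 times its lowest, against 1.41 times. Some of the tested genes had far lower counts than any gene of the set, so this comparison is not matched for level. ND 3 was the low tumour: it was the lowest of 6 libraries for 28 of 42 genes, among them 18 of 21 G2/M and 9 of 15 S phase genes, where it was the lowest for 12.6% of all tested genes. Within the HCD group, HCD 2 was the lowest of 3 for 36 of 42 genes, including all 21 G2/M genes, where it was the lowest of HCD for 37.5% of all tested genes. HCD 2 often stood at an end of the range in the table as a whole, as the lowest of 6 libraries for 21.6% and the highest for 23% of all tested genes. HCD 2 was also the library with the highest T cell, macrophage and endothelial marker sums given above. ND 3 had 74.9 CPM of T cell and 323 CPM of macrophage markers. ND 2 had 64.3 and 327 CPM of them and HCD 1 had 88.0 and 278 CPM. Yet ND 2 and HCD 1 were the lowest of 6 libraries for only 1 and 3 of 42 genes. The part of these cells in the low levels was not tested.

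The tumours with the highest levels differed in part between S phase and G2/M genes. Within ND, ND 2 was the highest of 3 for 15 of 15 S phase genes and for 11 of 21 G2/M genes, with ND 1 highest for the other 10, where ND 2 was the highest of ND for 35.2% of all tested genes. Over all 6 libraries, ND 2 was the highest for 10 of 15 S phase genes, against 10.9% of all tested genes. For the 21 G2/M genes it was HCD 1 for 10 (15.5% of all tested genes), HCD 3 for 8 (17.2%), ND 2 for 2 and ND 1 for 1 (21%). The muscle markers were high in ND 2 and HCD 1, and their part was not tested.

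**Figure D3:**
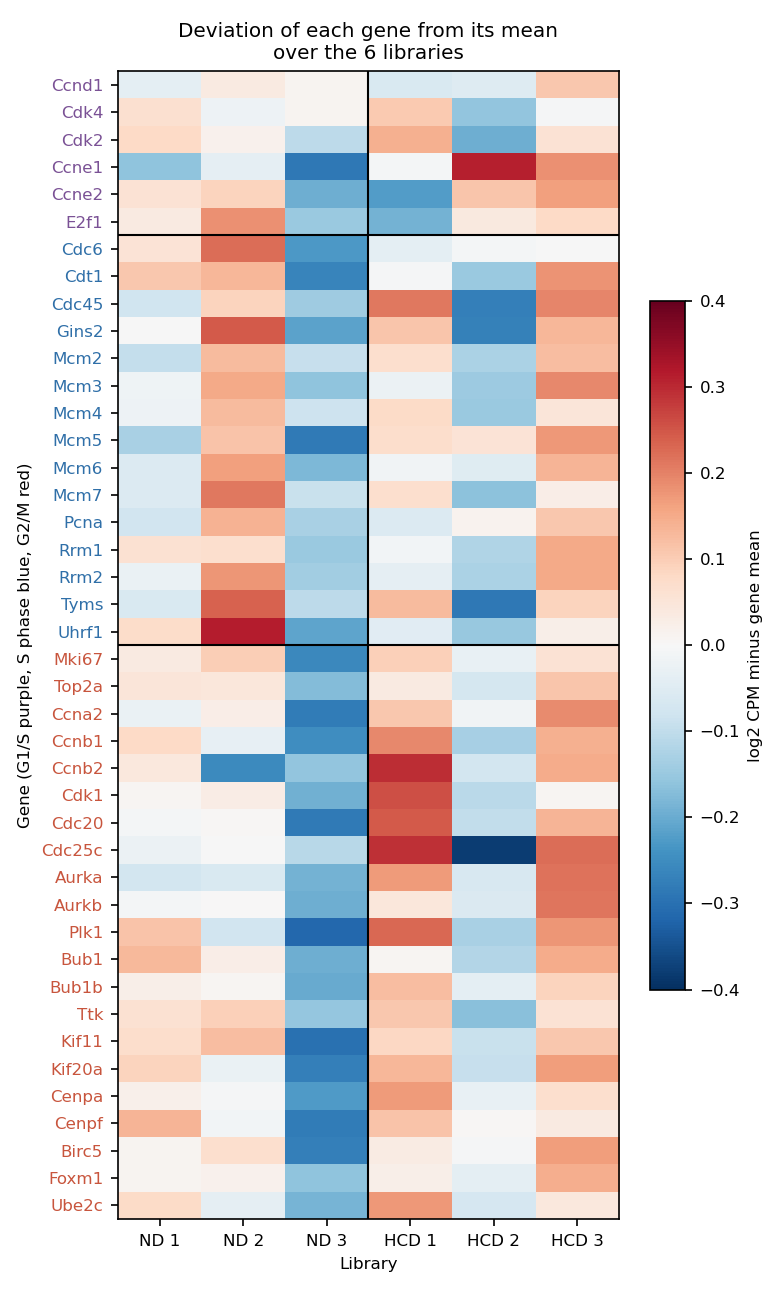
Log2 CPM of each gene in each library minus the gene's mean over the 6 libraries, as a colour from −0.4 (blue) to 0.4 (red), with horizontal lines between G1/S, S phase and G2/M genes and a vertical line between diets. ND 3 is blue for most genes, ND 2 is red for S phase genes, and HCD 2 is blue or pale for G2/M genes.

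No gene of the set passed the test between diets. With edgeR's quasi-likelihood test and Benjamini-Hochberg adjustment over all tested genes, 0 of 42 were called, as were 0 of 15539 genes (0%), and the smallest adjusted p in the set was 0.839. DESeq2's Wald test called 8 of all genes and 0 of the 42, and limma-voom called 0. At an unadjusted p under 0.05 by the same edgeR test, 2 of 42 were higher in HCD (Ccne1 and Aurka) and 0 were lower. Over all tested genes, 823 of 15539 were under 0.05 in either direction. Of these, 282 (1.81% of all tested genes) were higher in HCD, and the rest, the larger part, were lower. In CPM, the 3 HCD libraries all lay above the 3 ND libraries for 1 gene, Ccne1, against 4.75% of all tested genes. They all lay below for 0 genes, against 6.36%. In the deposited FPKM, Aurka lay above as well, by 16.19 FPKM in HCD 2 against 16.15 FPKM in ND 2. The 95% interval of the log2 fold change spanned 0 for 40 of 42 genes. Estimates were small: the median log2 fold change, HCD over ND, was 0.06, and 32 of 42 (76.2%) were above 0, against a median of 0.01 and 53% above 0 over all tested genes. This share rested on single tumours: without ND 3 the median was −0.01 and 20 of 42 were above 0, and without HCD 3 it was 0.01 with 22 of 42 above 0. It was 0.09 without ND 1, 0.12 without ND 2, 0.04 without HCD 1 and 0.12 without HCD 2.

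**Figure D4:**
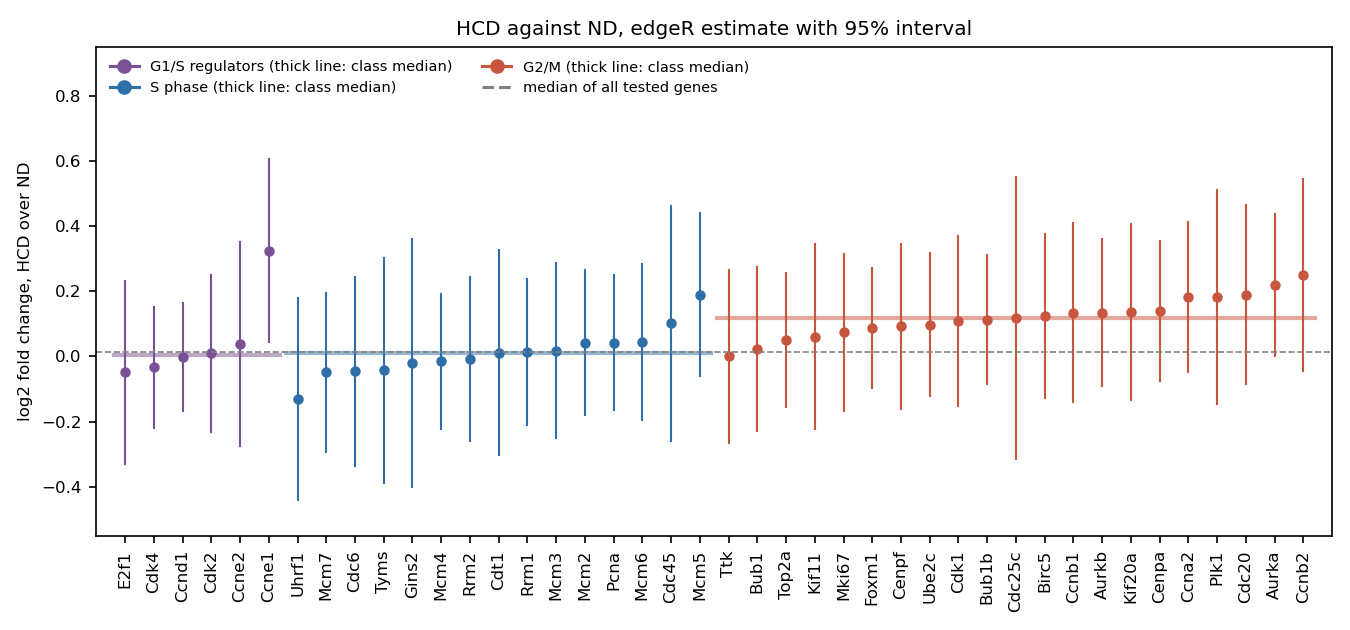
Log2 fold change, HCD over ND, of the 42 genes as edgeR estimates with 95% intervals, ordered within each class; thick lines are class medians and the dashed line the median of all tested genes. Intervals exclude 0 for Ccne1 and Aurka alone, and the G2/M estimates lie from 0.000 (Ttk) to 0.25 (Ccnb2).

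Among the G1/S regulators, 1 gene of 6 stood apart and the other 5 lay between −0.05 and 0.04 on the log2 scale. Ccne1, cyclin E1, the partner of Cdk2 at the entry into S phase, lies at chr7:38097984-38107534 and shared no exon with another gene. It had 17.8, 19.4 and 16.3 CPM in ND 1 to 3 and 19.8, 24.6 and 22.6 CPM in HCD 1 to 3. The HCD tumours were all above the ND tumours, by a narrow gap between ND 2 and HCD 1. The estimate was 0.32 ± 0.12 (SE; edgeR adjusted p = 0.839), with 0.25 to 0.40 when single libraries were left out. Cyclin E2, its paralog, did not follow: Ccne2 had 38.2, 39.0 and 32.0 CPM in ND and 31.4, 39.6 and 41.2 CPM in HCD, with an estimate of 0.04 ± 0.13 (edgeR adjusted p = 0.957). The CPM ratio of Ccne1 to Ccne2 was 0.466, 0.496 and 0.509 in ND and 0.629, 0.622 and 0.548 in HCD, so the diets did not overlap in it. Ratios of several gene pairs were computed, and in all the others the diets overlapped. The Ccne1 to Ccne2 ratio was looked at after the values were seen and was not tested. Ccne2 shares 17.4% of its exon bases with Ints8 on the opposite strand, and the strand setting of the counting is not given in the sources used here.

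Ccnd1 was the steadiest regulator, with 819, 863 and 849 CPM in ND and 807, 812 and 907 CPM in HCD. The diets overlapped, with HCD 3 highest and HCD 1 lowest (−0.003 ± 0.070, edgeR adjusted p = 0.992). Cdk4, its kinase, had 330.5, 311.5 and 318.4 CPM in ND and 340, 283.5 and 314.9 CPM in HCD. Its highest and lowest libraries were both HCD (−0.03 ± 0.08, edgeR adjusted p = 0.931). Cdk2 had 75.9, 72.7 and 66.8 CPM in ND and 79.3, 62.8 and 74.8 CPM in HCD (0.01 ± 0.10, edgeR adjusted p = 0.986), and again HCD held both ends. E2f1, the factor that switches on S phase genes, had 35.0, 38.8 and 30.8 CPM in ND and 29.9, 35.1 and 36.0 CPM in HCD (−0.05 ± 0.12, edgeR adjusted p = 0.934), with HCD 1 lowest and ND 2 highest.

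The 15 S phase genes were centred on 0, with a median of 0.01, 8 above 0 and 7 below, and 0 called. The median was −0.06 without ND 3 or without HCD 3, 0.09 without ND 2, 0.08 without HCD 2, 0.02 without HCD 1 and 0.004 without ND 1. The 6 subunits of the MCM2-7 helicase, which are loaded onto origins as a ring, did not all move alike. Mcm5 had the largest estimate, with 86.0, 102 and 77.3 CPM in ND and 98.5, 97.6 and 106 CPM in HCD. HCD tumours were close to each other, and ND 2 lay among them (0.19 ± 0.11, edgeR adjusted p = 0.839). Mcm7 had the lowest, with 238, 286 and 232 CPM in ND and 259, 220 and 251 CPM in HCD (−0.05 ± 0.10, edgeR adjusted p = 0.923). ND 2 was the highest and HCD 2 the lowest library, and part of this gene's sequence (23.3% of its 50-base words) also occurs in other genes.

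The remaining helicase subunits lay near 0. Mcm2 was at 142.8 ± 12.9 CPM in ND against 147 ± 12.9 CPM in HCD (SD, n = 3; log2 fold change 0.04 ± 0.09), and Mcm3 had 186 ± 20.2 and 189 ± 22.7 CPM (0.02 ± 0.11). Mcm4 had 89.7 ± 6.73 and 88.8 ± 7.40 CPM (−0.015 ± 0.088), and Mcm6 had 272.5 ± 33.4 and 280.9 ± 19.6 CPM (0.04 ± 0.10). For each of the 4 the difference between diets was smaller than the SD within a diet. The loading factors Cdc6 (−0.05 ± 0.12) and Cdt1 (0.01 ± 0.13), and the helicase partners Cdc45 (0.10 ± 0.15) and Gins2 (−0.02 ± 0.16), overlapped between diets as well. Gins2 shares 67.3% of its exon bases with Gse1 on the opposite strand, so its counts are uncertain.

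Genes of DNA synthesis did not all peak in the same tumour, with Rrm1 highest in HCD 3 and Pcna, Rrm2, Tyms and Uhrf1 highest in ND 2. Pcna had 197, 229 and 190.0 CPM in ND and 200.2, 210 and 224 CPM in HCD, with ND 2 highest and ND 3 lowest (0.04 ± 0.09, edgeR adjusted p = 0.922). Uhrf1, which guides the copying of DNA methylation to new strands, had the lowest estimate of the set. Its levels were 141, 166 and 116 CPM in ND and 130, 120 and 136 CPM in HCD, and the HCD values all fell inside the ND range (−0.13 ± 0.13, edgeR adjusted p = 0.862). Rrm1 (0.01 ± 0.09), Rrm2 (−0.01 ± 0.11), the regulatory subunit of the same reductase, and Tyms (−0.04 ± 0.15) overlapped too. The Rrm1 to Rrm2 ratio in CPM stayed between 2.19 and 2.51 over the 6 libraries.

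The 21 G2/M genes had a median of 0.12, and all 21 estimates were at or above 0 with 0 called; 20 of 21 lay above the median of all tested genes, as did 7 of 15 S phase and 2 of 6 G1/S genes. The lowest, Ttk, the spindle checkpoint kinase, was at 0.000 ± 0.112 and turned to −0.006 with upper quartile scaling. The median was 0.04 without ND 3, where 15 of 21 were above 0, 0.08 without HCD 1 and 0.19 without HCD 2. These genes moved together between tumours, so their shared direction is not 21 separate observations.

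Ccnb2, Aurka and Cdc20 had the largest G2/M estimates. Ccnb2, cyclin B2, lies at chr9:70407692-70421547 and had 37.6, 30.7 and 32.8 CPM in ND and 44.8, 34.7 and 40.6 CPM in HCD. HCD 1 and HCD 3 were above all ND tumours and HCD 2 was among them (0.25 ± 0.12, edgeR adjusted p = 0.839). Aurka, the kinase that matures spindle poles (chr2:172356190-172370535), had 61.5, 62.1 and 56.8 CPM in ND and 72.8, 62.0 and 75.4 CPM in HCD. Here too HCD 2 fell level with the ND tumours (0.22 ± 0.09, edgeR adjusted p = 0.839). Cdc20, which directs the anaphase-promoting complex to its targets, had 78.2, 78.8 and 64.6 CPM in ND and 93.1, 73.4 and 86.4 CPM in HCD (0.19 ± 0.12, edgeR adjusted p = 0.839). The order was the same, with HCD 1 and HCD 3 high and HCD 2 below ND 1 and ND 2.

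Ccna2, cyclin A2, which acts in S phase and G2, had 104, 108 and 87.4 CPM in ND and 114, 105 and 121 CPM in HCD (0.18 ± 0.10, edgeR adjusted p = 0.839). HCD 2 lay between ND 1 and ND 2, and the other HCD tumours above them. Ccnb1, cyclin B1, had 127, 118 and 101 CPM in ND and 137, 110 and 133 CPM in HCD (0.13 ± 0.12, edgeR adjusted p = 0.854). Cdk1, the kinase that B-type cyclins activate, had 119, 120.4 and 103 CPM in ND and 141, 109 and 119 CPM in HCD (0.11 ± 0.11, edgeR adjusted p = 0.865). For Cdk1 only HCD 1 exceeded the ND range, and the estimate was −0.002 without that library. Ccnb1 shares 23.4% of its 50-base words with other loci, among them Ccnb1-ps, while Ccnb2 and Cdk1 share none.

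The proliferation markers most used in tumour pathology differed little. Mki67 (chr7:135689784-135716361) had 768, 802 and 627 CPM in ND and 799, 733 and 780 CPM in HCD. The HCD tumours lay inside the ND range, and ND 3 was the lowest tumour by a clear margin (0.07 ± 0.10, edgeR adjusted p = 0.894). Top2a had 732, 730.3 and 627 CPM in ND and 726, 674 and 764 CPM in HCD, with ND 3 again lowest (0.05 ± 0.09, edgeR adjusted p = 0.909). Without ND 3 both turned below 0, to −0.03 for Mki67 and −0.02 for Top2a.

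Among the other G2/M genes the estimates ran from 0.02 for Bub1, a spindle checkpoint kinase, to 0.18 for Plk1, the polo-like kinase of mitotic entry. The checkpoint protein Bub1b was at 0.11 ± 0.08, and the chromosomal passenger genes Aurkb and Birc5 were at 0.13 ± 0.10 and 0.12 ± 0.11. The spindle motors Kif11 and Kif20a were at 0.06 ± 0.12 and 0.14 ± 0.11, and the centromere genes Cenpa and Cenpf at 0.14 ± 0.09 and 0.09 ± 0.11. Foxm1, the factor of the late wave, was at 0.09 ± 0.08, Ube2c, the ubiquitin carrier of the anaphase-promoting complex, at 0.10 ± 0.09, and Cdc25c, the phosphatase that activates Cdk1, at 0.12 ± 0.18. Each of these overlapped between diets. Kif20a shares 29.3% of its exon bases with Cdc23 on the opposite strand and Ube2c 22.8% with Tnnc2, and both counts are uncertain for that reason.

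S phase and G2/M genes were compared within each library by a class score, the mean over a class of a gene's log2 CPM minus its own mean over the 6 libraries. The G2/M score was 0.04, 0.002 and −0.22 in ND and 0.14, −0.09 and 0.13 in HCD. The S phase score was −0.02, 0.17 and −0.165 in ND and 0.03, −0.13 and 0.12 in HCD. Both were low in ND 3 and HCD 2 and high in HCD 3. They parted most in ND 2, where the S phase score alone was high. In HCD 1 they parted the other way, with the G2/M score at its highest (0.14) and the S phase score at 0.03. The S minus G2/M score was −0.06, 0.165 and 0.06 in ND and −0.11, −0.04 and −0.01 in HCD, with means of 0.05 ± 0.11 and −0.05 ± 0.05 (SD, n = 3). The diets overlapped, since ND 1 lay among the HCD tumours. As a difference of class medians of the log2 fold change, S minus G2/M was −0.11; it was −0.07 without ND 2, −0.06 without HCD 1 and −0.16 without ND 1 or HCD 3. No test was made of these scores.

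Other genes of the same phases gave a like picture. Over 30 further S phase and 39 further G2/M genes, none in the set of 42, the S minus G2/M score was −0.06, 0.11 and 0.06 in ND and −0.08, 0 (to 3 decimals) and −0.04 in HCD. ND 2 was again the highest library and HCD 1 the lowest, and ND 1 again lay among the HCD tumours. These genes were counted in the same libraries and are not an independent sample.

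**Figure D5:**
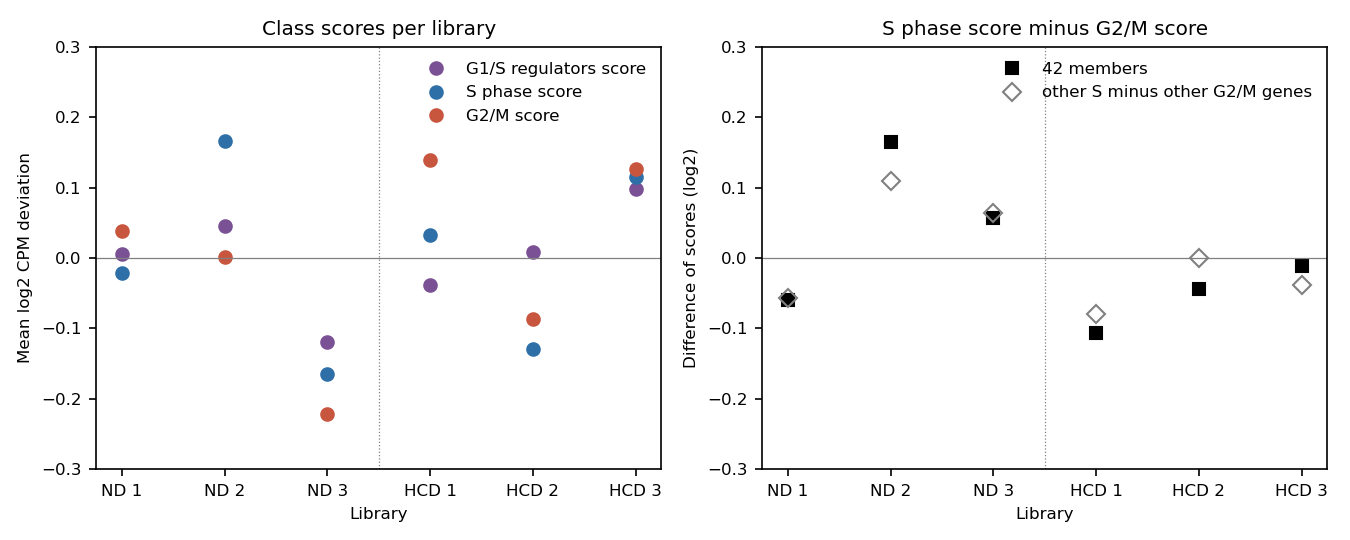
Left, mean log2 CPM deviation of the G1/S, S phase and G2/M genes in each library; right, S phase score minus G2/M score for the 42 genes (squares) and for other S phase and G2/M genes (diamonds). The S minus G2/M score runs from −0.06 to 0.17 in ND and from −0.11 to −0.01 in HCD, with overlap.

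The further genes of the pathway, in lists chosen by role, were examined for the same contrast, and in none of the 8 lists did a gene pass the test. Among the 30 other S phase genes, 15 were above 0 (median 0.01, against 0.01 over all tested genes). The smallest p was that of E2f8, a repressor of the E2F wave, with 43.4 ± 6.75 CPM in ND and 33.7 ± 0.595 CPM in HCD (−0.37 ± 0.12, edgeR adjusted p = 0.839). All 3 HCD tumours lay below the ND tumours for E2f8. This held for 2 of the 30 genes, against 6.36% of all tested genes. Among the 39 other G2/M genes, 31 were above 0 (median 0.07), with the smallest p for Hmgb2, a chromatin protein (0.23 ± 0.10, edgeR adjusted p = 0.839). All 3 HCD tumours lay above the ND tumours for 2 of the 39, against 4.75% of all tested genes, and below for 0.

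Of 15 partners in origin licensing and firing, 10 were above 0 (median 0.04). Gins3, which sits with Gins2 in the same complex, was at 9.28 ± 1.14 CPM in ND against 12.6 ± 0.739 CPM in HCD without overlap (0.44 ± 0.14, edgeR adjusted p = 0.839). Gins2 itself was at −0.02, and Gins1 (−0.15 ± 0.21) and Gins4 (0.01 ± 0.10), of the same complex, overlapped between diets. All 3 HCD tumours lay above the ND tumours for 2 of the 15 partners, against 4.75% of all tested genes. Of 8 other G1 kinases and cyclins, 4 were above 0 (median 0.05). Cdk6, the sister kinase of Cdk4, had 132, 123 and 138 CPM in ND and 114, 114 and 112 CPM in HCD. All HCD tumours lay below the ND tumours (−0.21 ± 0.06, edgeR adjusted p = 0.839), while Cdk4 overlapped. Of these 8 genes, 1 lay below in this way and 1 above, against 6.36% and 4.75% of all tested genes.

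Regulators on either side of these kinases varied in sign. Of 7 CDK inhibitors, 3 were above 0 (median −0.001), with the smallest p for Cdkn2b (−0.33 ± 0.16, edgeR adjusted p = 0.839). Cdkn2b was the 1 gene of the 7 lower in all 3 HCD tumours than in any ND tumour, and 0 were higher in all 3. Of 17 genes of the Rb, E2F and DREAM proteins, 12 were above 0 (median 0.12), with the smallest p for E2f4 (0.12 ± 0.06, edgeR adjusted p = 0.839). By the same separation, 3 of the 17 (E2f3, E2f7 and Lin9) were lower in HCD and 0 were higher. Of 5 genes that gate Cdk1 at G2, 3 were above 0 (median 0.007), with the smallest p for Pkmyt1, a kinase that inhibits Cdk1 (−0.12 ± 0.10, edgeR adjusted p = 0.842). Of 20 genes of the anaphase-promoting complex and the spindle checkpoint, 12 were above 0 (median 0.03), with the smallest p for Mad1l1 (−0.16 ± 0.08, edgeR adjusted p = 0.839). In all 3 HCD tumours, Mad1l1 was lower and Anapc10 higher than in any ND tumour, 1 gene of the 20 each way. Over all tested genes, 6.36% were lower and 4.75% higher in this way.

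The most abundant genes of the lists other than G1 kinases and cyclins overlapped between diets. Atad2, a chromatin factor of S phase, was at 234 ± 28.0 CPM in ND against 219 ± 4.89 CPM in HCD (−0.10 ± 0.09), and Hjurp, the chaperone that loads Cenpa at centromeres, at 508 ± 51.5 against 457 ± 36.1 CPM (−0.15 ± 0.10). The sign of Hjurp was opposite to that of Cenpa (0.14 ± 0.09), and neither passed the test. Topbp1, which helps origins fire, was at 0.08 ± 0.08, Tfdp1, the partner of E2F factors, at 0.06 ± 0.08, and Cdc25b, a phosphatase that activates Cdk1, at 0.09 ± 0.12. The CDK inhibitor Cdkn1a was at −0.13 ± 0.14, and Anapc5, a subunit of the anaphase-promoting complex, at −0.06 ± 0.07. In the list of G1 kinases and cyclins, Cdk6 was both the most abundant gene and the one with the smallest p.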

How the data were processed

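RNA-seq values of 6 tumours were used. The deposited table gives whole-number read counts per gene and FPKM values by the authors, per the file headers. The submitters' processing notes name CASAVA 1.8, TopHat2 2.0.9, HTSeq, edgeR and mm10, with no role or order. From the values, each FPKM scales the count by 1 length per gene and by the total of its library. The strand setting and annotation release are not given in the sources used here.

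Counts were tested here with edgeR 4.0.16's quasi-likelihood test (F statistic, legacy form, TMM factors of 0.979 to 1.02, minimum count 10 and minimum total 15, R 4.3.3), with diet as the only term. P-values were adjusted by Benjamini-Hochberg over 15539 genes (threshold 0.05), with a prior count of 0.125 for fold changes and 2 for log2 CPM, and 95% intervals. The test was tried on simulated data with fold changes larger than any in the set and less spread than estimated over all genes here. That trial therefore does not show how the test performs on changes as small as those of the set. Libraries of a diet differed beyond sampling noise, with a chi-square per gene of 17.2 to 32.2. Alternatives were DESeq2 1.42.0, limma 3.58.1, other scalings, filters and pseudocounts, a replicate block, other class borders and each library left out; CPM per kilobase and the first CHR word alone were added after the data were seen. All 42 genes could be named, and from each pathway list the gene with the smallest p and the gene with the highest CPM. The genes and lists were chosen with earlier results of these data known.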

Additional observations from a re-analysis of the deposited data

How the results depend on the processing

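Limits: 3 tumours per diet, fold changes of at most 0.32 on the log2 scale in the set, and estimates that often turned sign when 1 library was left out. With edgeR, 0 of 15539 genes were called; DESeq2's Wald test called 8 genes (1 higher and 7 lower in HCD), none of the 42, and leaving out single libraries gave 0 to 2 genes, the 2 being lower in HCD and called without ND 2. In the same refits 0 to 4 of the 42 had an unadjusted p under 0.05. Over 11 other settings, 451 of 462 gene estimates kept their direction and their side of the threshold. The 11 that turned belonged to Ttk (−0.006 with upper quartile factors and with limma-voom, −0.001 with no filter, −0.002 with adjusted deviances, −0.00069 with the replicate block), Ccnd1 (0.008) and Rrm2 (0.006), the last pair in each of 3 limma fits of log2 FPKM. The median over the 42 lay between 0.05 and 0.07 in these settings. The S minus G2/M difference was −0.16 to −0.06 over all settings and refits run. The cause of these changes was not tested.

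Leaving out single libraries moved more: 16 of 42 genes kept their direction in all 6 refits without 1 library. The log2 fold changes of the 26 others ran over these ranges: Bub1 −0.064 to 0.096, Ccnd1 −0.061 to 0.028, Ccne2 −0.047 to 0.148, Cdc25c −0.004 to 0.307, Cdc6 −0.16 to 0.067, Cdk1 −0.002 to 0.191, Cdk2 −0.063 to 0.107, Cdk4 −0.098 to 0.038, Cdt1 −0.107 to 0.093, Cenpf −0.014 to 0.19, E2f1 −0.131 to 0.039, Gins2 −0.125 to 0.111, Kif11 −0.061 to 0.143, Mcm2 −0.011 to 0.123, Mcm3 −0.082 to 0.106, Mcm4 −0.059 to 0.058, Mcm6 −0.032 to 0.148, Mcm7 −0.106 to 0.056, Mki67 −0.027 to 0.148, Pcna −0.011 to 0.131, Rrm1 −0.063 to 0.081, Rrm2 −0.091 to 0.087, Top2a −0.02 to 0.103, Ttk −0.074 to 0.084, Tyms −0.119 to 0.082, Uhrf1 −0.257 to 0.009. The deviations of same-numbered tumours from their diet means correlated at −0.307, 0.140 and 0.083, and those of differently numbered tumours at −0.544 to 0.543. Deviations from a mean of 3 tumours are tied to each other, so these values cannot decide whether the shared numbers pair the tumours. With the number as a replicate block, 0 of the 42 genes and 0 of all genes were called, and the median of the 42 was 0.061. In the fit with this block, no call of the set changed.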
